A study of Homo sapiens with 6 samples.

Results

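The genes described here are 40 genes of skeletal muscle, chosen by name: the contractile proteins of the sarcomere, the proteins that release, bind and pump calcium, and muscle creatine kinase and myoglobin. They were chosen with earlier results of these data known, so the shares over all genes given beside them are not an independent contrast. All 40 had a row among the 17081 genes of the count file. The libraries came from tumours of DMS114, a human cell line established from small cell lung cancer, in a sciatic nerve invasion model. The proximal group held 3 tumour pieces from the proximal invaded region and the distal group 3 pieces from the distal region. Both groups carried the same cell line, and the labels give no genotype, time or animal for either. The sources used here do not give the host species, what was done with host reads, or whether replicates came from separate animals. P-values therefore reflect the spread between these pieces alone, and that spread may be technical.

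In skeletal muscle, the sarcomere is the unit of contraction, in which thick filaments of myosin pull on thin filaments of actin, tropomyosin and troponin. A nerve impulse opens the ryanodine receptor of the sarcoplasmic reticulum, calcium binds troponin C, and the calcium pump then returns the calcium to the store. Fast and slow fibres use different genes for myosin, troponin and some of the calcium proteins, and these isoforms tell the fibre types apart. Several members, tropomyosins among them, are also made by cells other than muscle.

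The libraries held 16171106 to 26116191 counts, with distal 3 the smallest. Every pair of libraries differed by more than counting noise. Among markers of the tumour line, YAP1 (167 to 187 CPM) and the synaptic vesicle protein SYP (56.9 to 63.9 CPM) were level, while the neuronal factor NEUROD1 had 6.47 CPM in distal 3 and at most 0.618 CPM elsewhere. CPM here means counts scaled to library size, with sizes adjusted by TMM (trimmed mean of M values). In bulk pieces such as these, fewer cells of a type and less RNA per cell cannot be told apart.

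Muscle genes were read at very different levels in libraries of the same group. Distal 3 held the highest CPM for 39 of the 40 members, and proximal 3 came second for 32 of them. Among all 13382 genes tested, 26.9% were highest in distal 3, and 7.41% were highest in distal 3 with proximal 3 second. Counting only the 28 members that passed the low-count filter, 27 were highest in distal 3, and in 23 of these proximal 3 was second. The levels of 36 members, 24 of them tested, spanned at least 4-fold over the 6 libraries when counts under 3 were raised to 3, beside 5.37% of all genes tested. The median span was 61.5-fold over the 40 members and 1.34-fold over all genes tested.

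Members divided by whether they had a baseline, taken as at least 1 CPM in every library. There were 11 members with a baseline and 29 without. The 29 without summed to 11.9, 42.2 and 394 CPM in proximal 1, 2 and 3, and to 6.12, 26.6 and 2756 CPM in distal 1, 2 and 3. The lowest and the highest sums thus both lay in the distal group, and the groups overlapped. The 11 with a baseline summed to 1475 to 1848 CPM in the proximal libraries, to 1502 and 1650 CPM in distal 1 and 2, and to 5722 CPM in distal 3. No member was near zero throughout, which would have meant at most 10 counts in every library.

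**Figure D1:**
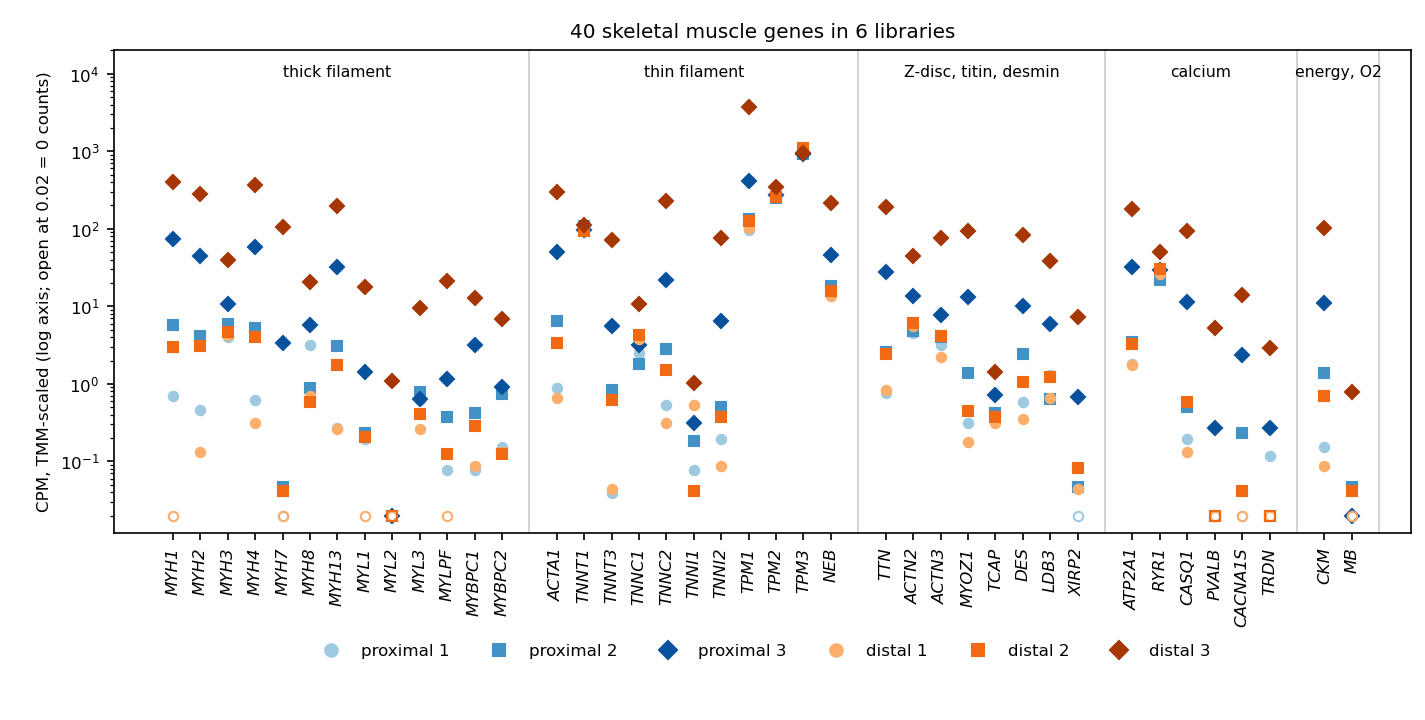
CPM of each of the 40 members (x axis, grouped by role) on a log axis, with 1 point for each library and open points at 0.02 for 0 counts. Distal 3 lies highest for 39 members, while TNNT1, TPM2 and TPM3 lie within 2-fold across all 6 libraries.

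Among the thick filament genes, the adult fast myosin heavy chains MYH1, MYH4 and MYH2 had the highest levels per kilobase of exon in distal 3, at 66.1, 61.1 and 42.3 CPM. These genes encode the motors of fast fibres and lie side by side on chromosome 17. MYH1 (10492307 to 10518542, GRCh38) had 0.696, 5.82 and 74.0 CPM in the proximal libraries and 0, 2.97 and 398 CPM in the distal ones. MYH2 (10521148 to 10549658) had 0.464, 4.20 and 44.6 CPM in proximal 1 to 3 and 0.132, 3.05 and 277 CPM in distal 1 to 3. MYH4 (10443263 to 10469559) had 0.619, 5.22 and 58.0 CPM in the 3 proximal libraries, then 0.308, 4.08 and 367 in the 3 distal ones. All 3 had the same order, from distal 3 through proximal 3, proximal 2, distal 2 and proximal 1 down to distal 1.

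The other heavy chains differed in their floor. MYH13, the extraocular muscle myosin of the same cluster (10300865 to 10373006), had proximal values of 0.271, 3.05 and 32.4 CPM beside distal values of 0.264, 1.77 and 196, the order of the adult fast genes. MYH3, the embryonic heavy chain, had a baseline, with 4.06, 6.00 and 10.7 CPM across proximal 1 to 3 against 4.32, 4.61 and 39.3 across distal 1 to 3. MYH8, the perinatal heavy chain, had 3.13, 0.877 and 5.75 CPM in the 3 proximal libraries, then 0.705, 0.577 and 20.9 in the 3 distal ones. In proximal 1 MYH8 thus stood well above its level in proximal 2, unlike MYH1, MYH2 and MYH4. MYH7 (chromosome 14, 23412740 to 23435660), the slow and cardiac heavy chain, had proximal values of 0, 1 and 76 counts beside distal values of 0, 1 and 1735. It thus had at most 1 count in each of 4 libraries, while proximal 3 reached 3.41 CPM and distal 3 reached 106 CPM.

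Sequence shared between heavy chain genes limits how far their counts can be told apart. Of the distinct 50-base stretches of the longest MYH1 transcript, 20.8% also occurred in a transcript of another gene (GENCODE 29), 14.1% in MYH2 and 7.63% in MYH4. The share was 17.1% for MYH2, 13.6% for MYH4, 8.97% for MYH13, 8.18% for MYH8 and 3.92% for MYH3. For MYH7 it was 14.5%, all of it found in MYH6, the cardiac heavy chain, and MYH6 itself had 48 counts in proximal 3 and 887 in distal 3. The share was 0% for 29 of the 40 members, among them TPM1, TPM2, TNNT1, TNNC1, TNNC2, CKM and DES. The sources used here do not say how such reads were counted, so values of single heavy chains are uncertain.

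Heavy chain reads were made up differently in the libraries with few of them. In distal 1, MYH3 took 75.4% of the 130 reads of the 7 heavy chain genes (95% interval 67.1% to 82.5%, exact Clopper-Pearson, counting error only). In proximal 1 MYH3 took 43.9% and MYH8 33.9% of 239 reads. In proximal 3 and distal 3, MYH3 took 4.69% of 5098 and 2.80% of 23008 reads. MYH1, MYH2 and MYH4 had shares of 32.3%, 19.5% and 25.3% in proximal 3 and of 28.3%, 19.7% and 26.1% in distal 3, and MYH13 took 14.2% and 13.9%. MYH8 took 2.51% (2.10% to 2.98%) in proximal 3 and 1.49% (1.33% to 1.65%) in distal 3. Between these 2 libraries the intervals overlapped for MYH2, MYH4 and MYH13 and did not for MYH1, MYH3, MYH7 and MYH8. The widest gap was in MYH7, at 1.49% (1.18% to 1.86%) and 7.54% (7.20% to 7.89%).

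Per kilobase of exon in distal 3, the light chains ran from 1.31 (MYL2) to 30.7 CPM (MYLPF), below the 3 adult fast heavy chains. MYL1, the fast alkali light chain, had 5, 5 and 32 counts across proximal 1 to 3 against 0, 5 and 291 across distal 1 to 3. MYLPF, the fast regulatory light chain, had 2, 8 and 26 counts in the 3 proximal libraries, then 0, 3 and 343 in the 3 distal ones. MYL2, the slow and cardiac regulatory light chain, had 0 counts in every library but distal 3, where there were 18. The slow light chain MYL3 had 16, 17 and 14 counts in proximal 1 to 3, so proximal 3 did not stand out, and 6, 10 and 157 in distal 1 to 3. MYBPC1, slow myosin-binding protein C, had 2, 9 and 70 counts across proximal 1 to 3 against 2, 7 and 211 across distal 1 to 3. Its fast counterpart MYBPC2 had 4, 16 and 20 counts in the 3 proximal libraries, then 3, 3 and 113 in the 3 distal ones.

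Of the thin filament genes, skeletal actin ACTA1 (chromosome 1, 229431245 to 229434094) had proximal values of 23, 139 and 1109 counts beside distal values of 15, 82 and 4953. In CPM, proximal 3 was at 49.8 and distal 3 at 302, against 0.661 to 6.42 CPM in the other 4 libraries, so the groups overlapped. ACTA1 shared few stretches with other genes (1.87%, of which 0.763% with ACTB). ACTB and ACTG1, the actins of non-muscle cells, had spans of 1.16-fold and 1.20-fold.

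TPM1, α-tropomyosin, had the most counts of any member in distal 3. It had 2462, 2870 and 9228 counts across proximal 1 to 3 against 2291, 3089 and 60686 across distal 1 to 3. In CPM this was 95.3, 133 and 414 in the proximal and 101, 127 and 3706 in the distal libraries, so 4 libraries lay within 95.3 to 133 CPM. Per kilobase of annotated exon, TPM1 was also first in distal 3, at 444 CPM, followed by TNNC2 at 264, TPM2 at 212, ACTA1 at 202 and TPM3 at 196 CPM. In proximal 1 the order per kilobase was TPM3 at 220, TPM2 at 161, TNNT1 at 61.0 and TPM1 at 11.4 CPM.

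All 3 fast troponin genes were highest in distal 3 and second in proximal 3. TNNC2, fast troponin C, the calcium sensor of fast fibres, had 14, 61 and 490 counts in the 3 proximal libraries, then 7, 37 and 3789 in the 3 distal ones. TNNI2, the fast inhibitory subunit, had proximal values of 5, 11 and 145 counts beside distal values of 2, 9 and 1261. TNNT3, the fast tropomyosin-binding subunit, had 1, 18 and 125 counts across proximal 1 to 3 against 1, 15 and 1188 across distal 1 to 3. Outside those 2 libraries the 3 genes had at most 61 counts. The slow inhibitory subunit TNNI1 had at most 17 counts, at 2, 4 and 7 in the proximal and 12, 1 and 17 in the distal libraries. TNNT1 and TNNC1, the other slow subunits, had a baseline in every library.

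At the Z-disc, which anchors the thin filaments, and in the proteins that span and align the sarcomere, all 8 members were highest in distal 3 and second in proximal 3. Titin, TTN, the molecular spring, had 0.774, 2.54 and 27.8 CPM in the 3 proximal libraries, then 0.837, 2.43 and 193 in the 3 distal ones. DES, the muscle intermediate filament desmin, had proximal values of 0.580, 2.45 and 10.2 CPM beside distal values of 0.352, 1.07 and 84.3. MYOZ1, a calcineurin-binding Z-disc protein of fast fibres, had 8, 30 and 295 counts across proximal 1 to 3 against 4, 11 and 1523 across distal 1 to 3. These 3 had overlapping groups, with distal 1 lowest or next to lowest in each. LDB3, a Z-disc PDZ and LIM protein, had 1.32, 0.646 and 5.97 CPM in the 3 proximal libraries, then 0.661, 1.24 and 38.7 in the 3 distal ones. XIRP2, an actin-binding repeat protein, had 0, 1 and 15 counts in proximal 1 to 3 and 1, 2 and 120 in distal 1 to 3. TCAP, the titin cap, stayed low in all 6, with proximal values of 10, 9 and 16 counts beside distal values of 7, 9 and 23.

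The calcium genes ranged from a steady level to near absence outside proximal 3 and distal 3. ATP2A1, the fast-fibre calcium pump SERCA1 (chromosome 16, 28878488 to 28904466), had 1.78, 3.46 and 31.9 CPM across proximal 1 to 3 against 1.76, 3.26 and 182 across distal 1 to 3. CASQ1, the calcium-binding protein of the store, had 0.193, 0.508 and 11.2 CPM in the 3 proximal libraries, then 0.132, 0.577 and 94.8 in the 3 distal ones. RYR1, the calcium release channel (chromosome 19, 38433691 to 38587564), had proximal values of 23.6, 21.7 and 29.5 CPM beside distal values of 25.9, 30.4 and 50.3. RYR1 therefore spanned 2.31-fold where ATP2A1 spanned 104-fold. CACNA1S, the voltage sensor that opens RYR1, had 0, 5 and 52 counts across proximal 1 to 3 against 0, 1 and 232 across distal 1 to 3. PVALB, a calcium buffer of fast fibres, had 6 counts in proximal 3 and 87 in distal 3 and 0 in the other 4 libraries. TRDN, which ties calsequestrin to the release channel, had 3, 0 and 6 counts in the 3 proximal libraries, then 0, 0 and 47 in the 3 distal ones.

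Of the energy and oxygen genes, CKM, muscle creatine kinase, had proximal values of 4, 30 and 247 counts beside distal values of 2, 17 and 1655. MB, the oxygen carrier myoglobin, had at most 1 count in each of 5 libraries and 13 counts in distal 3. In distal 3 CKM was thus at 61.0 CPM per kilobase of exon and MB at 0.485.

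The 11 members with a baseline were MYH3, TNNT1, TNNC1, TPM1, TPM2, TPM3, NEB, ATP2A1, RYR1, ACTN2 and ACTN3. Of these, 3 spanned less than 2-fold. TNNT1, slow troponin T, had 92.6, 109 and 97.7 CPM across proximal 1 to 3 against 95.2, 94.5 and 114 across distal 1 to 3. TPM3, a tropomyosin of slow fibres and of non-muscle cells, had 1055, 925 and 916 CPM in the 3 proximal libraries, then 990, 1103 and 937 in the 3 distal ones, and was the only member with its highest value outside distal 3. TPM2, β-tropomyosin, had proximal values of 264, 249 and 277 CPM beside distal values of 259, 257 and 348. TNNC1, troponin C of slow and cardiac muscle, had 2.48, 1.80 and 3.14 CPM across proximal 1 to 3 against 3.83, 4.24 and 10.7 across distal 1 to 3. Its distal libraries all lay above its proximal ones, which held for no other tested member and for 3.2% of all genes tested.

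NEB, ACTN2 and ACTN3 had a floor in 4 libraries with higher values in proximal 3 and distal 3. NEB, nebulin, which spans the thin filament, had 15.3, 18.4 and 45.9 CPM in the 3 proximal libraries, then 13.4, 15.7 and 215 in the 3 distal ones. ACTN2, the α-actinin of all muscle fibres, had proximal values of 4.49, 4.76 and 13.5 CPM beside distal values of 5.51, 6.18 and 44.1. ACTN3, the α-actinin of fast fibres, had 3.21, 4.02 and 7.77 CPM across proximal 1 to 3 against 2.25, 4.12 and 75.2 across distal 1 to 3. Both actinins thus kept a floor above 2 CPM that the adult fast myosins lacked in proximal 1 and distal 1.

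**Figure D2:**
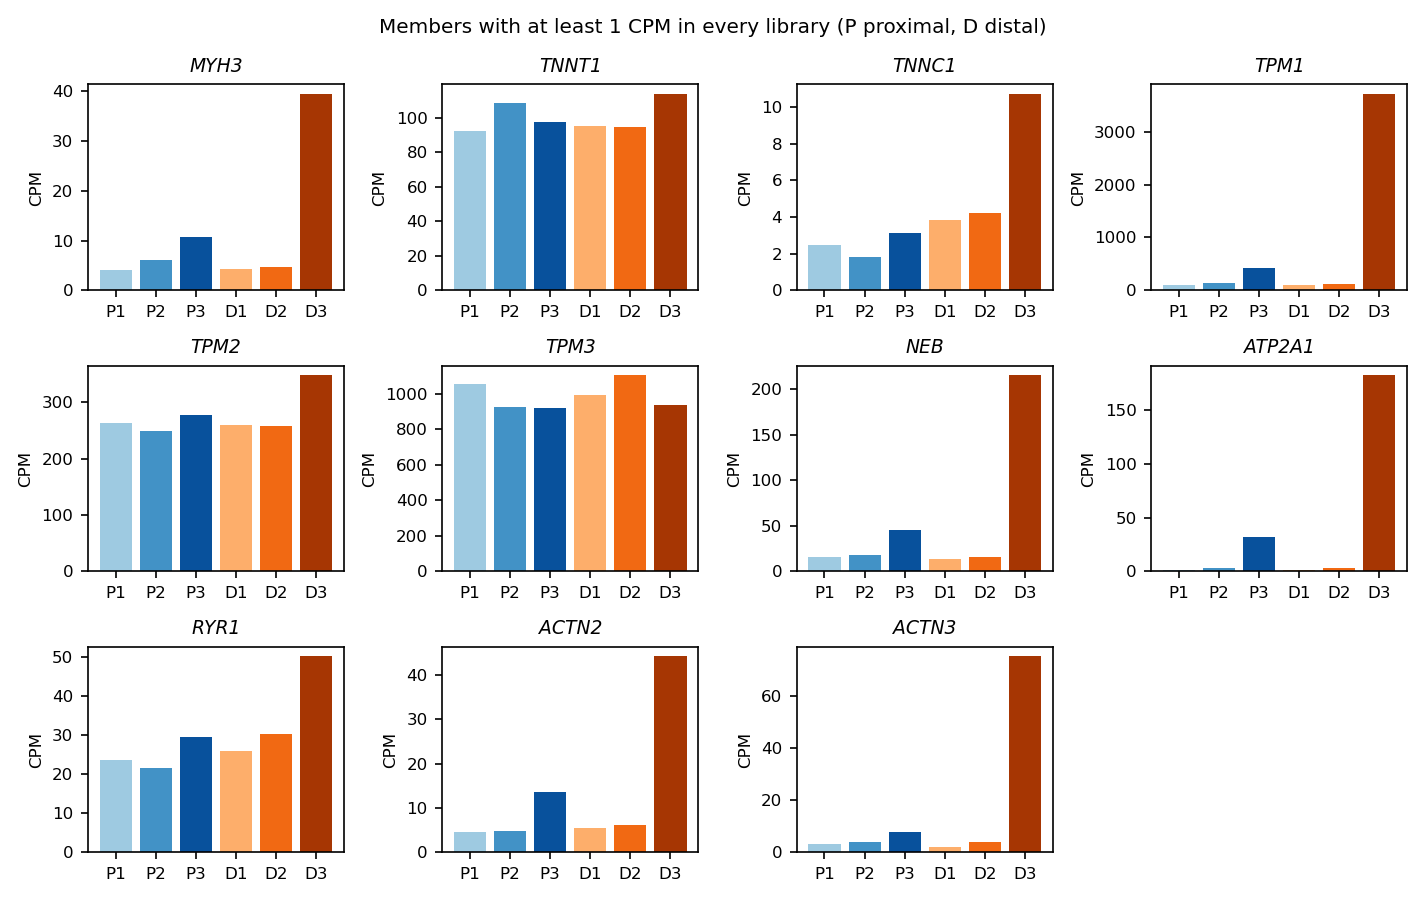
CPM in each library (bars, linear axis from 0) of the 11 members with at least 1 CPM in every library, P for proximal and D for distal. TNNT1, TPM2 and TPM3 are level, while TPM1 reaches 3706 CPM in D3 against 95.3 to 133 CPM in P1, P2, D1 and D2.

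The scale from proximal 3 to distal 3 was not the same for every member. Among the 27 members without a baseline that had more than 3 counts in both, CPM in distal 3 was 1.95 times (TCAP) to 31.0 times (MYH7) that in proximal 3, with a median of 7.68. Over the 13 fast-fibre genes of these it ran from 5.38 (MYH1) to 19.7 (PVALB, from 6 counts in proximal 3). The 4 slow-fibre genes ran from 3.30 (TNNI1) to 31.0 (MYH7). Among the 11 baseline members it ran from 1.02 (TPM3) to 9.68 (ACTN3).

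Fast and slow isoforms of the same protein were set against each other as shares of the counts of the pair in each library. Among the heavy chains, MYH7 made up 1.90% of MYH1, MYH2, MYH4 and MYH7 counts in proximal 3 (76 of 4009, 95% interval 1.5% to 2.37%) and 9.22% in distal 3 (1735 of 18813, 8.81% to 9.64%). It made up 0.302% in proximal 2 and 0.407% in distal 2, from 1 count each. These exact binomial intervals, which cover counting error only, did not overlap between proximal 3 and distal 3. The fast share for TNNI2 against TNNI1 was 95.4% in proximal 3 (90.7% to 98.1%) and 98.7% in distal 3 (97.9% to 99.2%). For MYL1 against MYL3 it was 69.6% (54.2% to 82.3%) and 65.0% (60.3% to 69.4%). The intervals of both these pairs overlapped between the 2 libraries.

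The fast share depended on the library where the slow isoform had a baseline, and also in some pairs where it had none. For TNNI2 against TNNI1 it was 14.3% in distal 1, from 14 counts (95% interval 1.78% to 42.8%). For MYL1 against MYL3 it was 0% in distal 1, from 6 counts (0% to 45.9%). The fast heavy chain share was 90.8% or above in each library, but in distal 1 it rested on 10 counts (69.2% to 100%). For TNNC2 against TNNC1 the fast share was 17.9%, 61.0% and 87.5% in the proximal and 7.45%, 26.4% and 95.6% in the distal libraries. For TNNT3 against TNNT1 it was 0.0418%, 0.759% and 5.43% in the proximal and 0.0463%, 0.65% and 39.0% in the distal libraries. The slow form TNNT1 was thus the larger part of troponin T counts in all 6 libraries, distal 3 included. Corrected for exon length, the TNNT3 share in distal 3 was 37.4% and the TNNC2 share 94.6%. For MYBPC2 against MYBPC1 the fast share was 22.2% in proximal 3 (14.1% to 32.2%) and 34.9% in distal 3 (29.7% to 40.3%), again with overlapping intervals. MYLPF had 26 of 26 counts of its pair with MYL2 in proximal 3 and 343 of 361 in distal 3.

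**Figure D3:**
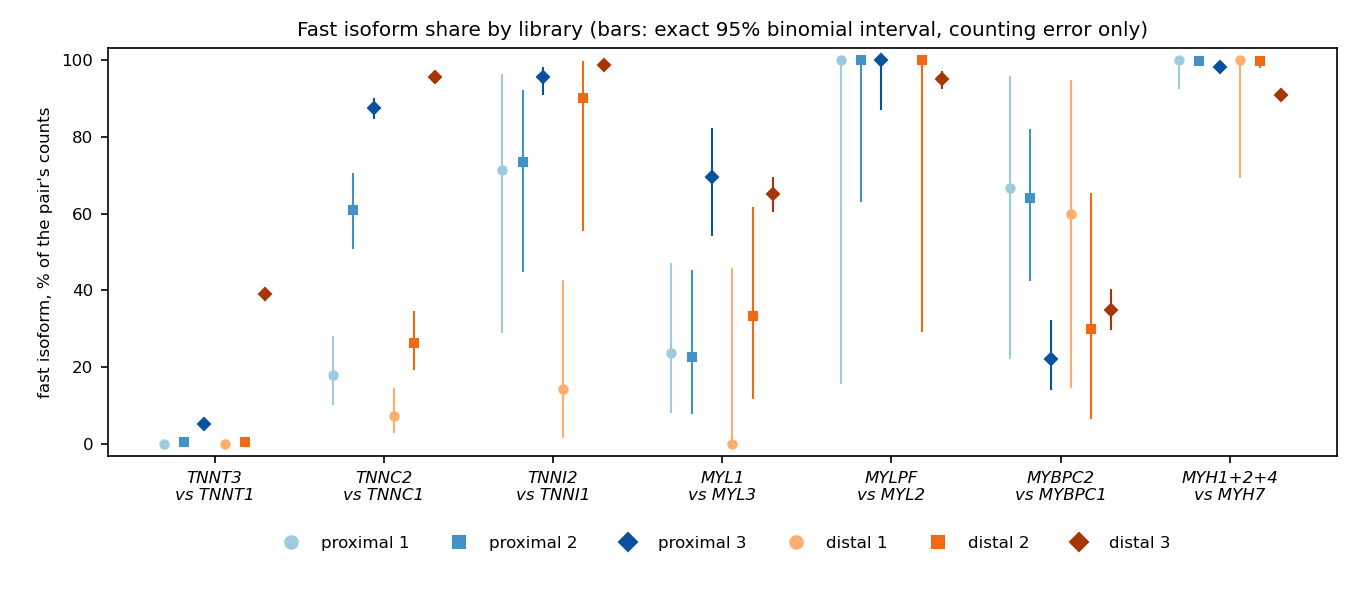
Share of the fast isoform in the counts of each fast and slow pair (x axis, percent on the y axis) in each library, with exact 95% binomial intervals as bars. The troponin T share reaches 39.0% in distal 3 and is at most 5.43% elsewhere. The heavy chain share is 90.8% or above in each library, from only 10 counts in distal 1.

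No member passed the test between distal and proximal pieces. With edgeR (quasi-likelihood, Benjamini-Hochberg adjusted), 0 of 28 tested members had an adjusted p under 0.05, beside 0% of all 13382 genes tested, and the adjusted p of each tested member was 0.9997. DESeq2, which gave no adjusted p for 20 of them, and limma-voom also called 0 members. The other 12 members did not pass the low-count filter: MYH7, MYL1, MYL2, MYLPF, TNNI1, MYBPC1, TCAP, PVALB, MB, CACNA1S, XIRP2 and TRDN. At an unadjusted p under 0.05 there was 1 member, TNNC1, where 0.665% of all genes tested were higher in distal at that p and 0.665% lower. TNNC1 averaged 2.47 ± 0.671 CPM over the proximal pieces and 6.25 ± 3.84 CPM over the distal ones (SD, n = 3 each). TNNC1 thus differed by 1.33 on the log2 scale (SE 0.42, 95% interval 0.37 to 2.28). Before adjustment edgeR's p for TNNC1 was 0.01173, and the adjusted p was 0.9997. Groups without overlap, with all distal above all proximal libraries, were found for TNNC1 among the 28, beside 3.2% of all genes tested. They lay the other way for 0 members and for 3.09% of all genes.

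The mean of the distal libraries was above that of the proximal libraries for all 40 members. Among the 28 tested the log2 fold change was above 0 for 28, beside 51.6% of all genes tested, with a median of 2.38 against 0.0045 over all genes. Under limma-voom the members' median was 0.30, with 5 of the 28 below 0. In edgeR with the replicate number as a block it was 1.05, with 1 of the 28 below 0. Without distal 3 the median was -2.31 and 25 of the 28 were below 0, so the direction depended on 1 library. The exceptions were TNNC1 at 0.71, RYR1 at 0.18 and TPM3 at 0.12. Without proximal 3 the median was 4.00. Without both proximal 3 and distal 3 the median was -0.26, with 8 members above and 20 below 0. The 95% intervals were wide where single libraries stood apart. For ACTA1 the log2 fold change was 2.42 (SE 2.61, 95% interval -4.72 to 9.56) and for TPM1 2.61 (SE 1.83, -2.40 to 7.63). For the level genes they were narrow, at 0.02 (SE 0.10, -0.21 to 0.25) for TNNT1, 0.06 (SE 0.10, -0.16 to 0.29) for TPM3 and 0.13 (SE 0.12, -0.14 to 0.40) for TPM2.

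**Figure D4:**
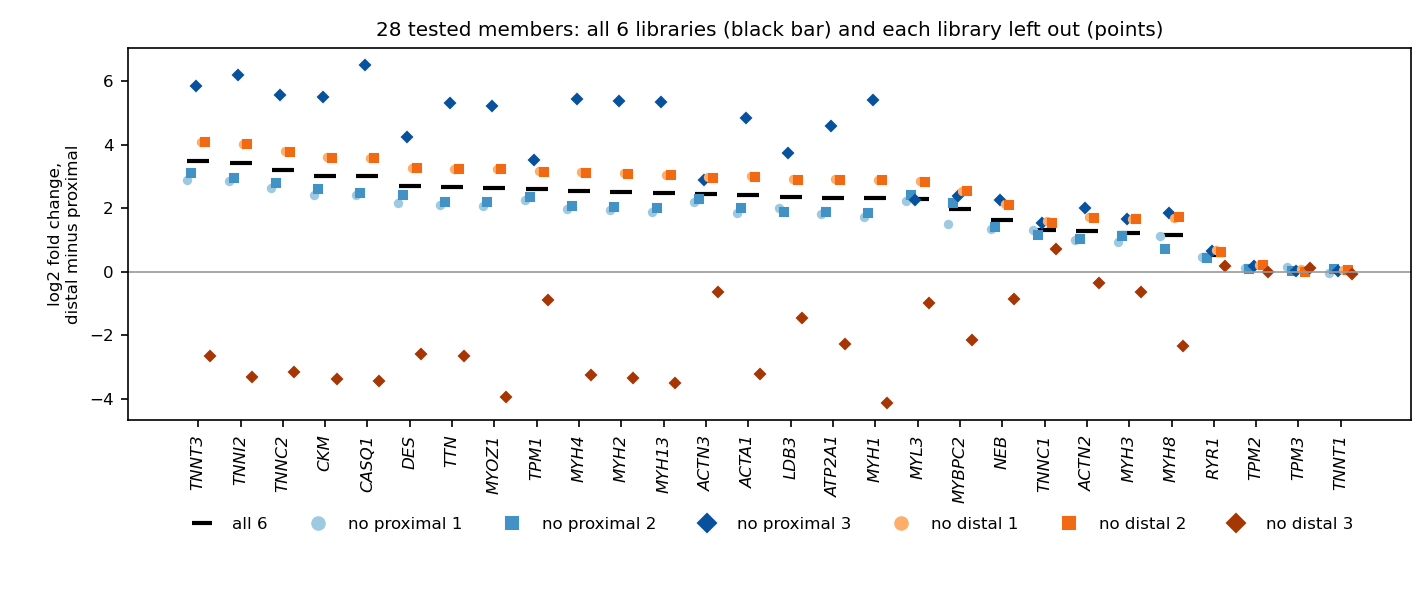
Log2 fold change, distal minus proximal (y axis), of the 28 tested members, from all 6 libraries (black bars) and with each library left out (points). Leaving out distal 3 puts 25 members below 0, while TNNC1 stays at 0.71.

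The promoters of 27 members were present in the RefSeq promoter table (GRCh38.p14, 250 bases before to 50 after the start). Those of 4 are shown as examples of members that varied together (ACTA1, MYH2 and TTN) and of a level member (TPM3). The TPM3 window surrounds a start inside the gene as RefSeq bounds it, not the gene's 5′ end, and so do those of TPM1 and LDB3, while the other windows lie at the gene's 5′ end. They are printed 5′ to 3′ with motif matches on either strand in capitals.
ACTA1, chr1:229434045-229434344, minus strand: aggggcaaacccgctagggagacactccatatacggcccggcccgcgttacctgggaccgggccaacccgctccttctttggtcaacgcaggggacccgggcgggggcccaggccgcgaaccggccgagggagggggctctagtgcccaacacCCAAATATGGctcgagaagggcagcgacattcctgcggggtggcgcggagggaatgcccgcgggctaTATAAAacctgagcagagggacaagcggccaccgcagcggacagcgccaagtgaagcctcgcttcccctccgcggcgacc
MYH2, chr17:10549609-10549908, minus strand: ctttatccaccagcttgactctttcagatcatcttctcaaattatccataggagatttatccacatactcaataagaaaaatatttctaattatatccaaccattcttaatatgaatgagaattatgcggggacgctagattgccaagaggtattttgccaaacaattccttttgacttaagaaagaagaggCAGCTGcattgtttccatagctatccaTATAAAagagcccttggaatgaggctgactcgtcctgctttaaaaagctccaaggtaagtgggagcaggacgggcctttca
TTN, chr2:178807374-178807673, minus strand: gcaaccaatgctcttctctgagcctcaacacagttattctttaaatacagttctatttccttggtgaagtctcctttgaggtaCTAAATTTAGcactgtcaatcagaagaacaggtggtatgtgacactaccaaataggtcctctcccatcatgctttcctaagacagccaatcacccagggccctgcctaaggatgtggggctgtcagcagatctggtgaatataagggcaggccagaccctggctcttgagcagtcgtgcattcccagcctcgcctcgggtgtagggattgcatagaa
TPM3, chr1:154183169-154183468, minus strand: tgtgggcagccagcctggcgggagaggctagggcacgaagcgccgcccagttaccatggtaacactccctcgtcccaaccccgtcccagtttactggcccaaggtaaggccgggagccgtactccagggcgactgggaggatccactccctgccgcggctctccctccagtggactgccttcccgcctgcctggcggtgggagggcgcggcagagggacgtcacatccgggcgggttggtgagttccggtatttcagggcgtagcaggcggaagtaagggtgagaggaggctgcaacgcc
The capitals mark a CArG box, the serum response factor site, and a TATA box (TATAAA) in ACTA1, an E-box of the form CAGCTG and a TATA box in MYH2, and a MEF2 site in TTN. The TPM3 window held none of the 4 motifs. Among the 27 member promoters, 9 held TATAAA (33.3%, against 12% of all 27305 promoters of this length) and 9 held CAGCTG (33.3%, against 17.7%). Those with TATAAA include MYH1, MYH2, MYH4, MYH8 and MYH13, related genes of the chromosome 17 cluster, so they are not separate instances. In MYH8 (186 bases before the start) and MYL1 (200 and 118 bases) the only matches were on the opposite strand. A CArG box was in 3 of the 27 (11.1%, against 1.29%), namely ACTA1, PVALB and LDB3, and a MEF2 site in 1 (3.7%, against 0.593%). By baseline, TATAAA was in 8 of 19 promoters of members without one and in 1 of 8 with one (TNNT1), and CAGCTG in 6 of 19 and 3 of 8. The motifs do not overlap each other in the sequences shown. These letters describe the human reference and no binding was measured.

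Other genes of the muscle programme, from lists beside the members, held no gene that passed edgeR's test. Of 28 other sarcomere genes 12 were tested, 10 with higher and 2 with lower values in distal, and 0 passed. KLHL41, a sarcomere-stabilising protein, had 11.1 CPM in distal 3 and at most 1.71 CPM elsewhere, while MYOM1 (14.9 to 16.9 CPM) and FLNC were level within 2-fold. Of 22 other calcium genes 20 were in the file and 10 were tested, 6 higher and 4 lower. ATP2A2, the calcium pump of slow, cardiac and non-muscle cells, had 356 to 407 CPM and thus spanned 1.14-fold. Of 18 other energy genes 10 were tested, 7 higher and 3 lower. PYGM, muscle glycogen phosphorylase, reached 70.0 CPM in distal 3 and 10.4 CPM in proximal 3, against at most 1.62 CPM elsewhere. ENO3, the muscle enolase, reached 128 CPM in distal 3 and 37.1 CPM in proximal 3, against 18.7 to 23.3 CPM elsewhere. PFKM, muscle phosphofructokinase, ran from 107 to 170 CPM and EEF1A2, a translation elongation factor, from 55.5 to 71.3 CPM, spans of 1.58-fold and 1.28-fold. Tested or not, 23 of the 28 sarcomere, 10 of the 20 calcium and 15 of the 18 energy genes were highest in distal 3. Spans of at least 4-fold were found for 13, 6 and 9 of them. Among all genes tested, 26.9% were highest in distal 3 and 5.37% spanned at least 4-fold. A further list of 17 genes, mostly non-muscle relatives of the members, held ATP2A2 again. All 17 had a baseline, 2 were highest in distal 3, and 0 of them spanned 4-fold.

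Some markers of other tissues were also highest in distal 3, and others were not. Of 10 cardiac markers 8 were in the file, summing to 2.59 to 6.15 CPM in the proximal and 1.89 to 75.9 CPM in the distal libraries. Most of the cardiac sum in distal 3 was MYH6 at 54.2 CPM and ACTC1 (cardiac actin) at 15.0 CPM, with TNNI3 (cardiac troponin I) at 4.09 CPM there and 1.25 to 2.59 CPM in the other 5 libraries. ANKRD1 (1.95 CPM) and MYL4 (0.611 CPM) were also highest in distal 3, so 5 of the 8 were. MYL7, TNNT2 and NPPA were not, at no more than 0.220, 0.155 and 0.0441 CPM in any library. The 9 Schwann cell markers in the file summed to 66.9 to 163 CPM in the proximal and 78.1 to 130 CPM in the distal libraries, with distal 3 the lowest of the distal group. The 8 smooth muscle markers, DES among them, summed to 640 to 1066 CPM in the proximal and 354 to 797 CPM in the distal libraries, again lowest in distal 3. ACTA2, smooth muscle actin, made up most of that sum, at 190 CPM in distal 3 and 548 to 981 CPM elsewhere. By gene, 3 of the 8 were highest in distal 3, namely DES (84.3 CPM), TAGLN (7.88 CPM) and ACTG2 (2.26 CPM). Endothelial markers, 7 in the file, summed to at most 1.08 CPM in the proximal and 2.81 CPM in the distal libraries. The 7 leukocyte markers summed to 0.735 to 4.99 CPM in the proximal and 1.41 to 5.56 CPM in the distal libraries, with proximal 3 and distal 3 highest in each. The 5 red cell markers summed to 0.310 to 4.76 CPM in the proximal and 0.618 to 2.20 CPM in the distal libraries, highest in the same 2 libraries, and the 5 adipocyte markers in the file to 2.03 to 3.05 CPM in all 6. The part of these other tissues, and of host reads, in the muscle counts was not tested.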

How the data were processed

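Messenger RNA libraries (TruSeq) of the 6 tumour pieces were sequenced on a NovaSeq X Plus, per the labels' protocols. The deposited file holds unnormalized counts for 17081 gene symbols. The submitters' processing notes name STAR 2.7.3a, Trimmomatic 0.39, featureCounts 2.0.1, bcl2fastq, DESeq2 and GRCh38. The sources used here give no annotation, strand setting or treatment of host reads.

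The deposited counts were analysed in R 4.3.3 with edgeR 4.0.16: expression filter (minimum count 10), TMM, robust quasi-likelihood test of distal against proximal with no covariate, Benjamini-Hochberg adjustment over all genes tested at 0.05. The standard error is the absolute log2 fold change over the square root of F. Exon lengths are unions of GENCODE 29 exons, and gene positions are RefSeq's for GRCh38. Intervals of shares are exact binomial (scipy 1.17.1). Figures were drawn with matplotlib 3.10.9. All 40 members were described, with all 6 values for those with at least 50 counts in some library. Of the other muscle lists, genes among the 4 with most counts in distal 3 were named. Members and lists were chosen with earlier results of these data known. Alternatives were other scalings and filters, DESeq2 1.42.0, limma-voom (limma 3.58.1), a replicate block, each library left out, and proximal 3 and distal 3 left out. The test was also run on simulated counts drawn from the means, sizes and dispersions of these libraries. There it called 76 of 100 genes changed 2-fold, 91 of 100 changed 4-fold, and 14 unaltered genes.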

Additional observations from a re-analysis of the deposited data

How the results depend on the processing

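Counts of members called were 0 under every alternative run: library totals alone, RLE scaling, 1 CPM or more required in 3 libraries, no filter on low counts, DESeq2, limma-voom, the replicate block, an adjusted p of 0.01, each library left out, and proximal 3 and distal 3 left out. DESeq2 gave no adjusted p for 20 of the 28 members. Over all genes it called 1, not a member, where edgeR called 0, and with a library left out edgeR called 0 to 1 (1, not a member, without distal 1). With RLE scaling, library totals alone or either other filter, all members with a value kept a positive log2 fold change. The median over the tested members was 2.38, and with a library left out it ran from -2.31 (without distal 3) to 4.00 (without proximal 3). Low counts kept 12 members out of the test.

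With the replicate number as a block, the median was 1.05, 1 member turned (MYH8, -0.10) and no call changed. Correlations of deviations between same-numbered libraries were 0.361, -0.114 and 0.182, and those between differently numbered libraries ran from -0.319 to 0.132. With 3 libraries in each group, these values cannot settle whether the numbers mark pairs. The labels give no animal, so the main test used no pairing. Under limma-voom the median was 0.30, and the log2 fold change turned for MYH1 (-1.62), MYH2 (-0.19), MYH8 (-0.59), MYBPC2 (-0.10) and MYOZ1 (-0.20). Without proximal 3 and distal 3 it turned for ACTA1 (-0.83), MYH1 (-1.10), MYH2 (-0.52), MYH3 (-0.17), MYH4 (-0.39), MYH8 (-1.65), MYH13 (-0.67), MYL3 (-1.03), TNNT1 (-0.086), TNNT3 (-0.31), TNNC2 (-0.84), TNNI2 (-0.55), NEB (-0.21), CKM (-0.90), ATP2A1 (-0.054), ACTN3 (-0.18), MYBPC2 (-1.72), MYOZ1 (-1.38), DES (-1.06) and LDB3 (-0.058). The cause was not tested.

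With each library left out in turn, log2 fold changes ran as follows, the lowest from the fit without distal 3 for every member but TPM3 (without distal 2): ACTA1 -3.22 to 4.83, MYH1 -4.14 to 5.39, MYH2 -3.34 to 5.36, MYH3 -0.63 to 1.66, MYH4 -3.25 to 5.44, MYH8 -2.34 to 1.84, MYH13 -3.52 to 5.35, MYL3 -0.98 to 2.85, TNNT1 -0.071 to 0.087, TNNT3 -2.66 to 5.86, TNNC1 0.71 to 1.58, TNNC2 -3.18 to 5.56, TNNI2 -3.33 to 6.21, TPM1 -0.91 to 3.52, TPM2 -0.028 to 0.20, TPM3 -0.0051 to 0.13, TTN -2.65 to 5.32, NEB -0.86 to 2.26, CKM -3.37 to 5.50, ATP2A1 -2.29 to 4.58, RYR1 0.18 to 0.69, CASQ1 -3.44 to 6.51, ACTN2 -0.37 to 2.00, ACTN3 -0.64 to 2.98, MYBPC2 -2.16 to 2.54, MYOZ1 -3.94 to 5.23, DES -2.61 to 4.25 and LDB3 -1.47 to 3.74.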
